A study of Mus musculus with 32 samples.

Results

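CD8 and CD4 T cells of donor mice, profiled as conventional T cells, were compared before any transplantation. The aim was to describe the lineage difference that the cells carried into the graft. The CD4 libraries also carried markers of regulatory T cells and the alpha chain segments of natural killer T cells, described below. The comparison rests on the 4 day 0 libraries of these cells (2 CD8 and 2 CD4) out of 31 libraries in the series, chosen by cell type and time in the sample labels and not by any measured value. The cells came from spleen and lymph nodes of C57Bl6 mice that carried no label of an engineered allele, and in the wider study they were given to Balb/c hosts as a model of acute graft-versus-host disease. A CD8 and a CD4 library came from each of 2 experiments, JL019 and JL027, and the labels do not say whether a library held cells of 1 mouse or of several. Other groups used here were 2 day 0 libraries of regulatory T cells (Treg) of C57Bl6 mice, 3 CD8 and 3 CD4 libraries recovered from syngeneic hosts, and 4 CD8 and 4 CD4 libraries recovered from allogeneic hosts that received no Treg. The titles place the recovered cells at day 6 and the series description at day 8. Bulk RNA and the alpha (TRA) and beta (TRB) chains of the T-cell receptor were sequenced from each library.

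CD4 and CD8 T cells arise from a common thymic precursor that carries both coreceptors. The CD4 coreceptor binds class II and the CD8 coreceptor class I molecules of the major histocompatibility complex, and the transcription factors ThPOK (Zbtb7b) and Runx3 hold the helper and the cytotoxic programme apart. Resting CD8 cells of unmanipulated mice include cells of memory phenotype, which carry Eomes, killer receptors and stored effector transcripts. The germline V segments of the receptor differ in how often they are found with each coreceptor.

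RNA values are the authors' counts scaled between libraries, called normalised counts below, and the number of RNA reads behind them is unknown. Differences are on the log2(value + 1) scale, CD8 minus CD4, and a fold is 2 raised to that difference. Where a pair of values is given, JL019 comes first and JL027 second. Adding 1 shrinks the differences of genes near 0. Over 10337 genes with a mean of at least 100, log2 values correlated between the 2 libraries of a group at Pearson r = 0.983 for CD4, 0.951 for CD8 and 0.961 for Treg, as a description across genes. The median gene was higher by 0.07 in CD8. One library outside the day 0 groups, CD4 syngeneic JL019-2, stood apart from its group: it held 1659 of Cd4 against 14576 and 16526 in the other syngeneic CD4 libraries, and 1511210 of S100a8, a neutrophil gene, against 33541 and 35269. It shared the estimate of the spread with the day 0 libraries, so counts are also given without it.

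Across 16741 genes, 556 differed (3.32%): 372 were higher in CD8 (2.22% of those tested) and 184 were lower (1.1%) at an adjusted p under 0.05 (limma with Benjamini-Hochberg adjustment). The median fold was 4.02 among the genes called higher and 5.31 among those called lower. At an unadjusted p under 0.05 there were 1981 genes. Without CD4 syngeneic JL019-2 the number called was 854 (576 higher and 278 lower), and leaving out any 1 of the 4 libraries left 266 to 340. Centring each library on its median moved the median difference of all genes to -0.08 and the split to 276 higher and 250 lower. Quantile normalisation gave 413 higher and 299 lower.

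**Figure D1:**
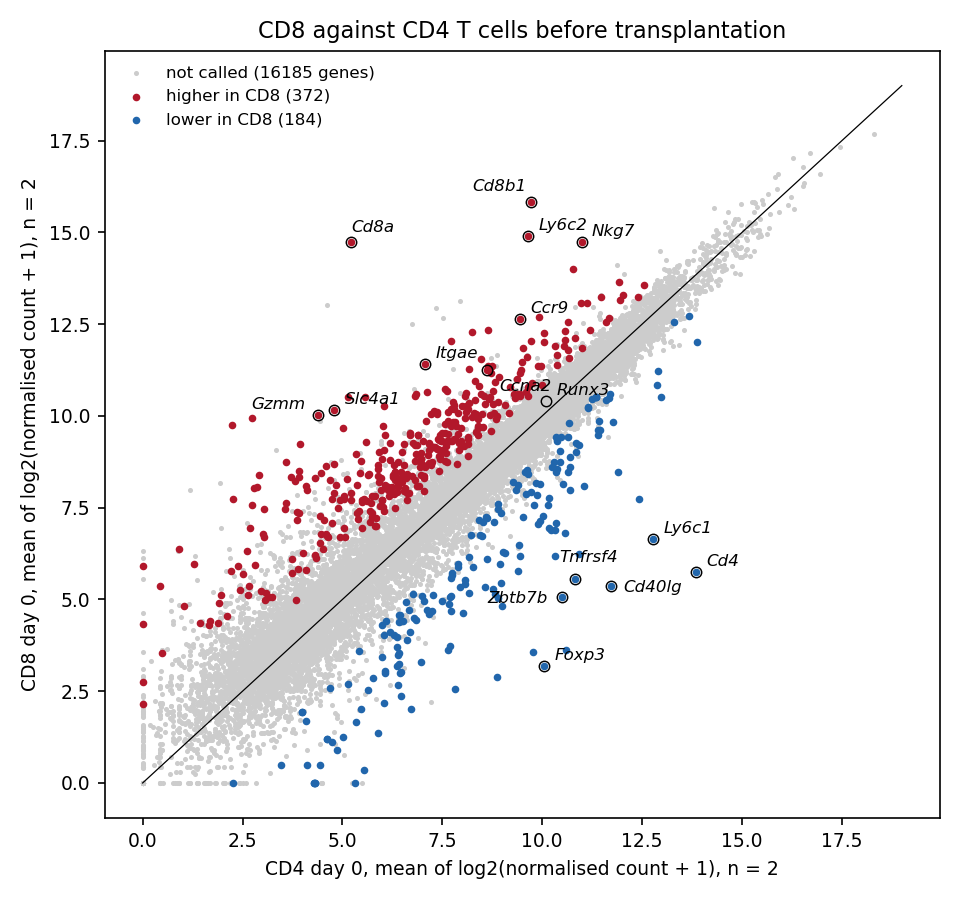
Each point is 1 of 16741 genes, at its mean log2(normalised count + 1) in the 2 CD4 libraries (x axis) and in the 2 CD8 libraries (y axis). The line marks equal levels, red points are the 372 genes called higher in CD8 and blue points the 184 called lower. Cd8a, Cd8b1, Ly6c2 and Nkg7 lie far above the line, Cd4, Ly6c1, Cd40lg and Foxp3 far below it, and Runx3 close to it.

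The coreceptor transcripts separated the sorted cells. Cd4 stood at 14693 and 14778 in the CD4 libraries of JL019 and JL027 and at 92.8 and 29.4 in the CD8 libraries. That is a 276-fold difference (log2 difference -8.11, SE 0.79, adjusted p = 1.36e-07). Cd8a, the alpha chain of the CD8 coreceptor, stood at 26.3 and 49.9 in CD4 and at 23173 and 31914 in CD8, 730.0-fold higher (log2 difference 9.51, SE 0.86, adjusted p = 3.89e-08). Cd8b1, the beta chain, read 837 and 833 in CD4 and 50321 and 68117 in CD8 (log2 difference 6.13, SE 0.45, adjusted p = 1.21e-09). Unlike Cd8a, Cd8b1 was thus well above 0 in the CD4 libraries, and it also stood at 521 and 542 in Treg. The genes for both chains lie 35934 bases apart on chromosome 6. Zbtb7b, which encodes the CD4 lineage factor ThPOK, fell from 1491 and 1412 in CD4 to 19.9 and 53.8 in CD8 (log2 difference -5.42, SE 0.52, adjusted p = 1.21e-07). Its groups were far apart. Runx3, the opposing CD8 lineage factor, held 1179 and 1011 in CD4 and 1515 and 1226 in CD8, a difference of 0.32, adjusted p = 0.91, which did not pass the test. The 2 Runx3 groups did not overlap, but 26.6% of all genes lay with both CD8 libraries above both CD4 libraries and 23.4% with both below.

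Of the 25 coreceptor and lineage factor genes, 2 were higher (Cd8a and Cd8b1) and 3 lower (Cd4, Zbtb7b and Tox2), against 2.22% and 1.1% of all genes. The median difference was -0.23 against 0.07 over all genes. Without CD4 JL019, CD4 JL027 or CD8 JL027 there were 2 lower, without CD4 syngeneic JL019-2 5, and 9 when the 4 libraries were fitted alone. Tox2, a relative of the thymocyte factor Tox, stood at 126 and 122 in CD4 and 22.3 and 3.06 in CD8 (log2 difference -3.69, SE 0.82, adjusted p = 0.0076). Both CD8 values were low but differed from each other by several fold. Its call was lost in those same 3 omissions (adjusted p 0.070 to 0.303). Factors that all T cells use differed less and did not pass the test. Tcf7 differed by -1.07, adjusted p = 0.61, Bcl11b by -1.49, adjusted p = 0.44, Gata3 by -1.36, adjusted p = 0.18 and Runx1 by -1.13, adjusted p = 0.077. For each of these 4 genes both CD8 libraries lay below both CD4 libraries, as for 14 of the 25 members and 23.4% of all genes. For 5 of the 25 both lay above (26.6% of all genes).

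Zbtb7b and Runx3 are linked through a regulatory circuit in which RUNX proteins bind a short DNA core. That core, TGTGGT on either strand (ACCACA when read on the other), was looked for in the 250 bases before each start site in RefSeq (GRCm38.p6). The 2 spellings cannot overlap each other, and their matches are printed in capitals. A coreceptor gene and a lineage factor gene with large differences are shown, each 5′ to 3′ on its own strand. The Cd8a window is chr6:71373177-71373426 on the + strand and has no match. Zbtb7b has 2 start sites, the first of which has no match. The window of the second is chr3:89387672-89387921 on the - strand and has 1 match, which begins 89 bases before the start. Runx3, whose own level is given above, also has 2 start sites: the first has 2 matches, which begin 134 and 126 bases before it, and the second has none.
Cd8a: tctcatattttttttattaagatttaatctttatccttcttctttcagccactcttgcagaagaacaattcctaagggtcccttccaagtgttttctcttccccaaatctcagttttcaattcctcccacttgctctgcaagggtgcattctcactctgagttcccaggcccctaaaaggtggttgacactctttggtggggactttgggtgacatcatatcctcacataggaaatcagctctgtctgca
Zbtb7b: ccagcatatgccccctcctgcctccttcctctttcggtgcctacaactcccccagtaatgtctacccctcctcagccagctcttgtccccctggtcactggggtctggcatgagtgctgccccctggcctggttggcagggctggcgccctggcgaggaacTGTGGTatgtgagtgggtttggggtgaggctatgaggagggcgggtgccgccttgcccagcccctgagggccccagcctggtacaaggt
The core was present before 14% of all 32851 start sites and in at least 1 window of 13.7% of the 11718 measured genes with a promoter in the table. Among the called genes it was present in 43 of 292 (14.7%) of those higher in CD8 and in 23 of 131 (17.6%) of those lower. These are letters in a window and not binding sites.

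Many cytotoxic effector genes were higher in CD8 before transplantation. Of 20 such genes 9 were called higher and 1 lower, where 2.22% and 1.1% of all genes were, and the median difference of the list was 1.63. Nkg7, a cytotoxic granule membrane protein, stood at 2283 and 1796 in CD4 and 23919 and 31225 in CD8 (log2 difference 3.75, SE 0.45, adjusted p = 3.24e-06). Gzmm, which encodes granzyme M, went from 22.2 and 18.2 to 871 and 1239, 49.3-fold higher (log2 difference 5.62, SE 0.65, adjusted p = 1.64e-06). Both genes had their 2 groups far apart. Among secreted factors, the chemokine Ccl4 stood at 23.6 and 18.6 in CD4 and 311 and 391 in CD8 (log2 difference 3.99, SE 0.45, adjusted p = 1.17e-06). Ccl5, another chemokine, held 1013 and 917 in CD4 and 5898 and 7375 in CD8 (log2 difference 2.77, SE 0.65, adjusted p = 0.011). Ctsw, Cst7, Crtam, Ccl3 and Gzma made up the rest of the 9, at log2 differences of 2.12 to 3.14. The pore former Prf1 stood at 1098 and 1155 in CD4 and 2249 and 3089.7 in CD8 and missed the threshold (1.23, adjusted p = 0.069). Gzmb, which encodes the granzyme typical of activated killer cells, was at 145 and 135 in CD4 and 236 and 363 in CD8 (1.06, adjusted p = 0.12). The Ifng values overlapped, with 80.1 and 103 in CD4 and 81.6 and 62.6 in CD8.

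Fasl, the ligand of the Fas death receptor, went the other way. Its level was 905 and 797 in CD4 and 258 and 231 in CD8, 3.47-fold lower (log2 difference -1.79, SE 0.38, adjusted p = 0.00465). The call on Fasl was lost when CD4 JL019 or CD8 JL027 was left out. Over the same omissions the number of cytotoxic genes called higher was 6 or 7.

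Some killer receptor genes, which include those of the natural killer gene complex, were higher as well. Of 26 measured members 7 were higher (2.22% of all genes) and 0 lower, with a median difference of 1.57. At an unadjusted p under 0.05 the counts were 13 higher and 1 lower. The latter was Klrg1, an inhibitory receptor, which stood at 119 and 89.4 in CD4 and 23.2 and 48.5 in CD8 (-1.59, adjusted p = 0.091). Klrd1 (CD94), the partner chain of the NKG2 receptors, read 427 and 371 in CD4 and 4527 and 5923 in CD8 (log2 difference 3.70, SE 0.61, adjusted p = 2.83e-04). Klrc1, which encodes NKG2A, stood at 184 and 236 in CD4 and 763 and 1014 in CD8 (log2 difference 2.07, SE 0.35, adjusted p = 3.34e-04). Cd160 had 696 and 627 in CD4 and 1785 and 2338 in CD8 (1.63, adjusted p = 0.02). The Ly49 genes Klra3, Klra4 and Klra7 and their neighbour Klre1 were no higher than 33.4 in CD4 and between 203 and 362 in CD8. Ly49 genes are close copies of one another, and the split of reads among them is uncertain. The number of killer receptors called rested on the libraries used: it was 2 when any 1 of the 4 day 0 libraries was left out, 12 higher with 1 lower without CD4 syngeneic JL019-2, 4 higher with median centring, and 14 higher with 2 lower when the 4 libraries were fitted alone.

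Markers of natural killer cells were counted beside these genes. Of 11 such markers 3 were higher in CD8 (Eomes, Gzma and Klra4) and 0 lower, where 2.22% and 1.1% of all genes were. All 3 are also called members of other lists described here. The summed level of the 11 markers was 2007 and 2058 in CD4 against 4639 and 6102 in CD8. Ncr1, the marker most particular to these cells, stood at 32.7 and 25.2 in CD4 and 85.2 and 91.5 in CD8 (1.59, adjusted p = 0.65). Klra8 was at 0 in CD4 JL019. The number of these markers called was 1 when any 1 of the 4 libraries was left out, 5 without CD4 syngeneic JL019-2, and 7 higher with 1 lower in the 4 libraries alone. Their part in the result was not tested. In bulk samples, more cells of a type and more RNA per cell cannot be told apart.

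**Figure D2:**
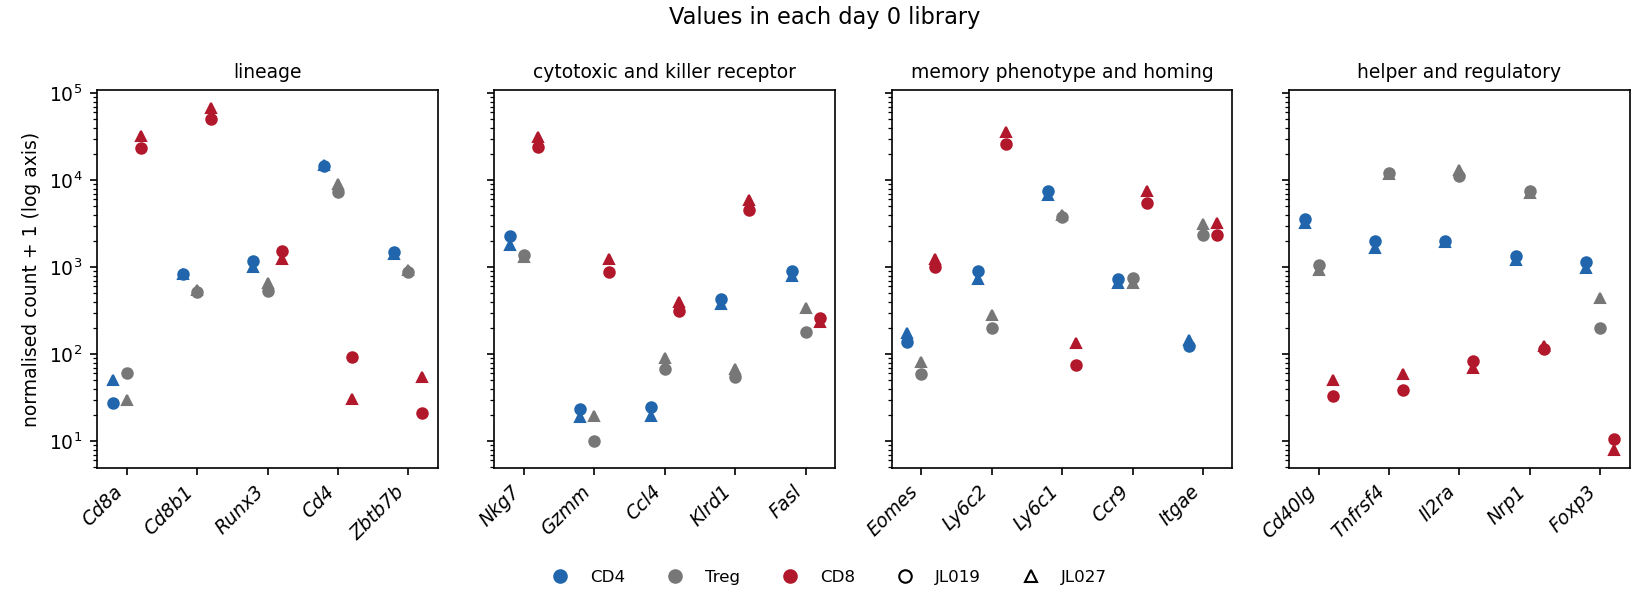
Normalised count + 1 (log axis) of 20 genes in each of the 6 day 0 libraries. Blue is CD4, grey Treg and red CD8, and circles are JL019 and triangles JL027. The 2 libraries of a cell type lie close together for most genes, the Runx3 values of CD4 and CD8 lie close together, and Fasl, Ly6c1 and the helper and regulatory genes are lower in CD8.

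Genes of memory-phenotype CD8 cells moved in both directions. Of 19 members 4 were higher (Eomes, Ly6c2 and Il18rap among them) and 2 lower (Ly6c1 and Ly6a), against 2.22% and 1.1% of all genes, with a median of 0.74. The 4 and 2 became 4 and 1 without CD8 JL019, where Ly6a was lost, 3 and 2 without CD8 JL027, where Il18rap was lost, 7 and 4 without CD4 syngeneic JL019-2 and 11 and 4 in the 4 libraries alone, and 4 were lower with median centring or quantile normalisation. Eomes, a T-box factor of memory cells, stood at 139 and 172 in CD4 and 1006 and 1253 in CD8 (log2 difference 2.85, SE 0.34, adjusted p = 3.39e-06). Its relative Tbx21 stood at 566 and 535 in CD4 and 1059 and 1333 in CD8 (1.11, adjusted p = 0.38). Il18rap, a chain of the interleukin 18 receptor, held 366 and 376 in CD4 and 1325 and 1681 in CD8 (log2 difference 2.01, SE 0.40, adjusted p = 0.00271). Cd44, the adhesion receptor commonly used to gate memory cells, stood at 2291 and 2413 in CD4 and 2016 and 2181 in CD8 (-0.17, adjusted p = 0.95). Il2rb, a chain of the receptors for interleukins 2 and 15, held 7713 and 6581 in CD4 and 11242 and 11744 in CD8 (0.69, adjusted p = 0.74).

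The Ly6 genes for the surface protein Ly6C differed in opposite directions. Ly6c2 was 38-fold higher in CD8, with 893 and 723 in CD4 and 25878 and 36105 in CD8 (log2 difference 5.25, SE 0.90, adjusted p = 4.47e-04). Its neighbour Ly6c1 was 70.2-fold lower, with 7432 and 6659.6 in CD4 and 73.8 and 133 in CD8 (log2 difference -6.13, SE 0.44, adjusted p = 1.21e-09). Treg resembled CD4, with 3732 and 3983 of Ly6c1 and 197 and 281 of Ly6c2. The genes are close copies that lie 59240 bases apart on chromosome 15, so how reads were split between them is uncertain. Since the copies changed in opposite directions, the windows before their first start sites are shown with the same capitals as above. The Ly6c1 window is chr15:75048838-75049087 and the Ly6c2 window chr15:75111972-75112221, both on the - strand. Ly6c1 has no match to the RUNX core, and Ly6c2 has 1, which begins 179 bases before the start.
Ly6c1: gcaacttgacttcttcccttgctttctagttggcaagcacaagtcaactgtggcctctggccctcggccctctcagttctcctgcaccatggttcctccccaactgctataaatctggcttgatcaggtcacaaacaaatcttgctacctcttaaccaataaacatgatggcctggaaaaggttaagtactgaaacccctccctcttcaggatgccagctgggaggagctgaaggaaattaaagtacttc
Ly6c2: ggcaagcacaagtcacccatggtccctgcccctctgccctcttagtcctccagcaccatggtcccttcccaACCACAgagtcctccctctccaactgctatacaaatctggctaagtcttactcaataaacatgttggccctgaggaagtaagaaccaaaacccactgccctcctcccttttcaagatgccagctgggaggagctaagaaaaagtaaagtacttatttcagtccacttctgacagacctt
Ly6a, which encodes Sca-1 and lies in the same family, was also lower in CD8, at 1972 and 2863 against 7960.3 and 7269.9 (log2 difference -1.68, SE 0.33, adjusted p = 0.00228).

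CD4 helper and costimulation genes were lower in CD8. Of 32 members 14 were called lower (1.1% of all genes) and 0 higher (20 and 1 at an unadjusted p under 0.05), and the median difference was -1.56. Cd40lg, the helper signal to B cells, stood at 3530.3 and 3204 in CD4 and 32.4 and 49.6 in CD8, 81.9-fold lower (log2 difference -6.36, SE 0.52, adjusted p = 5.24e-09). Tnfrsf4 (OX40), a costimulatory receptor, held 1995 and 1666 in CD4 and 37.4 and 57.5 in CD8 (log2 difference -5.27, SE 0.46, adjusted p = 2.04e-08). Tnfsf11, which encodes RANK ligand, held 461 and 496 in CD4 and 24.6 and 41.5 in CD8 (log2 difference -3.86, SE 0.49, adjusted p = 6.25e-06). For these 3 genes no CD8 library came near a CD4 library. Among the others, Pdcd1 (PD-1), an inhibitory receptor, held 1015 and 941 in CD4 and 131 and 147 in CD8 (log2 difference -2.81, SE 0.40, adjusted p = 3.50e-05), and Ctla4, another, held 1179.7 and 1106 in CD4 and 95.2 and 157 in CD8 (log2 difference -3.21, SE 0.57, adjusted p = 6.98e-04). Maf, Cd200, Slamf1, Tnfrsf25, Ccr4, Ccr6, Ccr8, Il4 and Il21 were the other 9, of which Il4 and Il21 stood at no more than 58.1 in any of the 4 libraries. Cd28 stood at 9584 and 9387 in CD4 and 3767 and 4776 in CD8 and missed the threshold (-1.16, adjusted p = 0.095). In the other direction Il1rl1, the receptor for interleukin 33, stood at 58 and 70.8 in CD4 and 196 and 208 in CD8 (1.64, adjusted p = 0.067). The count of lower genes was 9 without CD4 JL019 or CD8 JL027 and 11 without either of the other libraries. Fitted without CD4 syngeneic JL019-2 it was 17 lower and 1 higher.

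Many of these genes are also marks of regulatory T cells, and that list was lower in CD8 as well. Of 18 Treg markers 12 were lower (1.1% of all genes), 1 was higher (Itgae), and the median difference was -2.73. The 12 became 8 without CD4 JL019, 9 without CD8 JL027, 10 without CD8 JL019, 11 without CD4 JL027 and 15 without CD4 syngeneic JL019-2. Their summed level was 27530 and 25065 in CD4, 9240 and 12066 in CD8, and 122881 and 128829 in the sorted Treg. Foxp3, the Treg lineage factor, stood at 1145 and 978 in CD4 and 9.68 and 6.82 in CD8 (log2 difference -6.86, SE 0.86, adjusted p = 5.46e-06). In the Treg libraries Foxp3 was 198 and 442, below both CD4 libraries, which goes against the labels for that single gene. Apart from Foxp3 and Itgae, every marker of the list was higher in both Treg libraries than in any CD4 or CD8 library. Il2ra (CD25) read 1981 and 1923 in CD4, 82.3 and 67.7 in CD8 and 11229 and 13064 in Treg (log2 difference -4.69, SE 0.46, adjusted p = 1.37e-07 for CD8 minus CD4). Nrp1, a surface receptor of thymus-derived Treg, read 1354 and 1221 in CD4, 113 and 122 in CD8 and 7417 and 7167 in Treg (log2 difference -3.44, SE 0.26, adjusted p = 2.06e-09). Ikzf2, which encodes the factor Helios, read 1619 and 1769.9 in CD4, 508 and 719 in CD8 and 19287 and 14182 in Treg (-1.48, adjusted p = 0.088). The part that Treg among the sorted CD4 cells may have in the helper and Treg lists was not tested. Lrrc32, Izumo1r, Ikzf4, Gpr83 and Capg were lower in CD8 too, and Il10 was at 0 in both CD8 libraries.

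Some of the lowest p-values belonged to genes not yet described. Pdlim4, a scaffold protein of the actin skeleton, stood at 1660.2 and 1442 in CD4 and 16.9 and 7.51 in CD8 (log2 difference -6.97, SE 0.67, adjusted p = 1.21e-07). In Treg it was 36.8 and 38.8, so this CD4 transcript was low in Treg as well. Penk, which encodes the opioid precursor proenkephalin, stood at 508 and 428 in CD4 and 3.72 and 10.7 in CD8 (log2 difference -5.97, SE 0.44, adjusted p = 1.21e-09). Treg held far more, at 3109 and 2510.1. Ptgir, the prostacyclin receptor, went from 219.8 and 232 in CD4 to 3.14 and 7.4 in CD8 (log2 difference -5.26, SE 0.48, adjusted p = 3.89e-08). On the CD8 side, Scart1, a scavenger receptor also known from gamma-delta T cells, rose from 13.3 and 9.1 to 412 and 439.8 (log2 difference 5.15, SE 0.57, adjusted p = 8.77e-07). Mcoln2, a cation channel of endosomes, stood at 50.3 and 44.8 in CD4 and 606 and 652 in CD8 (log2 difference 3.70, SE 0.29, adjusted p = 3.07e-09). Sytl3, a synaptotagmin-like protein of vesicle traffic, stood at 213 and 205 in CD4 and 1138 and 1200.3 in CD8 (log2 difference 2.48, SE 0.25, adjusted p = 2.97e-07). Fam71b, at 6.3 and 19.2 in CD4 and 148 and 265 in CD8, completed the CD8 genes of this kind (log2 difference 4.04, SE 0.41, adjusted p = 2.97e-07). Scart1 belongs to a list of innate-like T-cell markers, of which 1 of 10 was higher (Scart1) and 1 lower (Maf), against 2.22% and 1.1% of all genes. Zbtb16, the factor of natural killer T cells, stood at 99.8 and 93.9 in CD4 and 20.9 and 20.4 in CD8 (-2.18, adjusted p = 0.47).

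Among 22 naive and lymph node homing genes 2 were higher and 1 lower (median -0.29), against 2.22% and 1.1% of all genes. Itgae (CD103), the integrin that binds epithelial cadherin, stood at 122 and 144 in CD4 and 2337 and 3212 in CD8 (log2 difference 4.36, SE 0.49, adjusted p = 1.12e-06). Treg lay near CD8, at 2327 and 3091. Ccr9, the chemokine receptor for the small intestine and thymus, stood at 729.9 and 657 in CD4 and 5415 and 7588 in CD8 (log2 difference 3.21, SE 0.44, adjusted p = 2.13e-05). For this gene Treg lay near CD4, at 748 and 662. Igfbp4, a binding protein of insulin-like growth factors, was the member called lower (15916 and 14214 against 3532 and 4836, log2 difference -1.86, SE 0.50, adjusted p = 0.032), a call lost when any 1 of the 4 libraries was left out. Ccr7, the receptor that guides T cells into lymph nodes, stood at 36622 and 34189.6 in CD4 and 20003 and 27448 in CD8 (-0.59, adjusted p = 0.84). Among 31 chemokine receptors and integrins 4 were higher (Itgae, Ccr9 and Cxcr6 among them) and 4 lower (Ccr4, Ccr6, Ccr8 and Itgb3), against the same shares of all genes. Itgb3, the integrin beta 3 chain, stood at 2130.3 and 2073 in CD4 and 285 and 255 in CD8 (log2 difference -2.96, SE 0.82, adjusted p = 0.039). The 4 lower became 1 or 2 with any 1 of the 4 libraries left out.

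Of 33 genes for cytokine receptors and their signal transducers 1 was higher and 4 lower (median -0.37), against 2.22% and 1.1% of all genes. Ifngr1, a chain of the interferon gamma receptor, was the one that rose, from 6128 and 5909 to 10509.5 and 14248 (log2 difference 1.02, SE 0.25, adjusted p = 0.014), though the call held only with CD8 JL019 left out among the 4 omissions. Besides Il2ra, the lower members were Il9r and a pair of genes induced by STAT5, Cish (1141 and 803 against 150.1 and 117, log2 difference -2.84, SE 0.48, adjusted p = 3.09e-04) and Socs2 (269.8 and 204 against 65.7 and 57.6, log2 difference -1.92, SE 0.33, adjusted p = 4.34e-04). Cish and Socs2 were higher still in Treg, at 2433 and 3957 for Cish and 1689 and 1316 for Socs2.

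In 4 lists no member passed the test by limma. These were the 34 genes of the receptor complex and its proximal signalling, the 20 of class I presentation, the 20 interferon-stimulated genes and the 19 immediate early genes. The medians were -0.33, -0.19, -0.06 and -0.68. At an unadjusted p under 0.05 they held 3, 1, 1 and 4 lower members and, among the immediate early genes, 1 higher. With the 4 libraries fitted alone the same lists gave 0 higher and 6 lower, 1 and 0, 0 and 1, and 1 and 9. Quantile normalisation gave 0 and 2, 0 and 0, 0 and 1, and 0 and 1. Without CD4 syngeneic JL019-2 there were 2 lower in the first and 1 higher in the last. Cd5, a receptor that tracks the strength of self recognition, stood at 10408 and 9297 in CD4 and 3356 and 4391 in CD8, just outside the threshold (-1.36, adjusted p = 0.062). Nr4a1 (Nur77), an early gene downstream of the receptor, stood at 1424 and 1230.1 in CD4 and 319 and 324 in CD8 (-2.04, adjusted p = 0.19). Its Treg values spread from 1395 to 7728. The kinase gene Lck differed by -0.38, adjusted p = 0.84 and Cd3e by -0.61, adjusted p = 0.57.

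**Figure D3:**
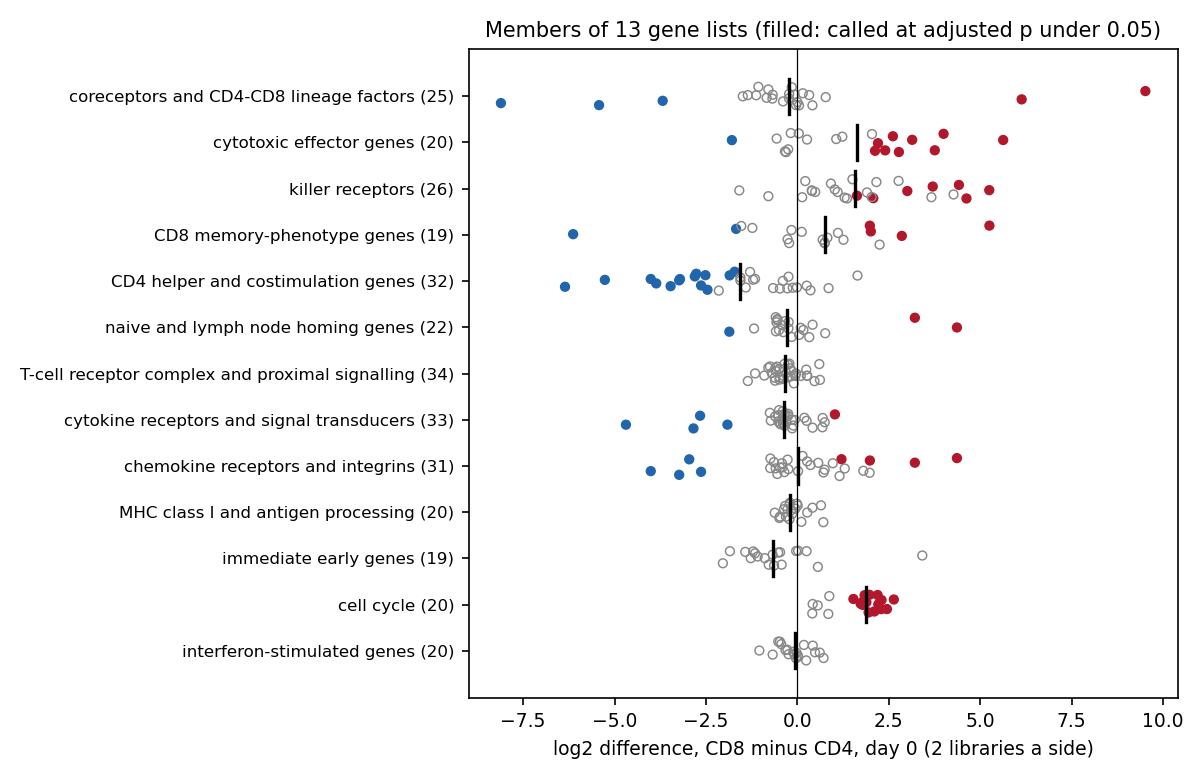
Log2 difference, CD8 minus CD4, of each member of 13 gene lists. Filled points passed the test (red higher, blue lower in CD8), open points did not, black bars are list medians, and the number of measured members is in brackets. All 20 cell cycle genes lie to the right of 0, at a median of 1.86, and the helper genes lie mostly to the left, at -1.56.

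Cell cycle genes were higher in the day 0 CD8 libraries. Of 20 members 15 were called higher (2.22% of all genes) and 0 lower (17 and 0 at an unadjusted p under 0.05), with a median difference of 1.86, and both CD8 libraries exceeded both CD4 libraries for all 20 (26.6% of all genes). Ccna2 (cyclin A2) stood at 407 and 374 in CD4 and 2226 and 2647 in CD8 (log2 difference 2.63, SE 0.27, adjusted p = 2.97e-07). Ccnb1 (cyclin B1) held 425 and 415 in CD4 and 2002 and 2626 in CD8 (log2 difference 2.45, SE 0.28, adjusted p = 1.53e-06). Top2a, the topoisomerase of replicating cells, held 767 and 658 in CD4 and 2578 and 2327 in CD8 (log2 difference 1.78, SE 0.23, adjusted p = 9.15e-06). Mki67 held 309 and 330.1 in CD4 and 1386 and 1361 in CD8 (log2 difference 2.10, SE 0.34, adjusted p = 2.39e-04). Outside the list, Racgap1 (364 and 345 against 2643 and 3343, log2 difference 3.06, SE 0.28, adjusted p = 5.02e-08), Ccne2 (103 and 103 against 698 and 801, log2 difference 2.84, SE 0.30, adjusted p = 3.64e-07) and Sgo1 (48.6 and 70.9 against 419 and 340.2, log2 difference 2.67, SE 0.29, adjusted p = 8.05e-07) were among the 10 genes with the lowest p on the CD8 side. The 5 members not called were Pcna and the helicase subunits Mcm2, Mcm3, Mcm5 and Mcm6, at 0.41 to 0.87. Ccna2 lay at 5665 to 6926 in CD8 and 6328 to 7572 in CD4 cells from syngeneic hosts. Both ranges lay above the day 0 CD8 values.

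Markers of erythroid cells and platelets moved with the same CD8 libraries. Their sum over 11 measured markers was 1277 and 552 in CD4, 30589 and 34680 in CD8, and 495 and 169 in Treg, which is 0.149% and 0.140% of all signal in the CD8 libraries. Of the 11 markers 2 were called higher (2.22% of all genes) and 0 lower, and 9 had both CD8 libraries above both CD4 libraries (26.6% of all genes). Slc4a1, the anion exchanger of red cells, stood at 33.9 and 21.1 in CD4 and 1158 and 1115 in CD8 (log2 difference 5.36, SE 1.12, adjusted p = 0.00392). Haemoglobin gene Hbb-bs was 226 and 115 in CD4 and 7284 and 8634 in CD8 and was not called (5.61, adjusted p = 0.17). The platelet gene Ppbp was at 0 in CD4 JL019 and CD8 JL019 and below 5 in the JL027 libraries. The count of 2 was 0 without CD4 JL027, 1 without either CD8 library, 4 with the experiment as a replicate block and 7 in the 4 libraries alone. Without CD4 JL027 the median difference was 4.43 for the erythroid and platelet list and 1.73 for the cell cycle list. The part of erythroid cells and platelets in the cell cycle result was not tested.

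Markers of B cells, myeloid cells and stroma were counted in the same way, and their part in the results was not tested. Over all genes 2.22% were called higher and 1.1% lower. Of 15 B-cell markers 2 were higher, Ighd (129 and 105 against 524 and 655, log2 difference 2.32, SE 0.47, adjusted p = 0.00326) and Cd79b (249.8 and 185 against 1082 and 1609.8, log2 difference 2.61, SE 0.59, adjusted p = 0.00878). The summed B-cell level was 44637 and 39123 in CD4 and 59861 and 70052 in CD8, most of it Ighm, which T cells can transcribe without rearrangement. Of genes that B cells need, Ms4a1 stood at 83.6 and 61.9 in CD4 and 202 and 331 in CD8, and Pax5 at 20 and 5.22 in CD4 and 17.1 and 43.6 in CD8. H2-Eb1 was at 0 in both CD4 libraries. No B-cell marker was called without CD4 JL027 or CD8 JL027, and 8 were higher in the 4 libraries alone. Of 15 myeloid markers 0 were called in either direction, and their sums were 1985 and 1013 in CD4 and 4105 and 5505 in CD8, with Cd14 at 0 in both CD4 libraries. At an unadjusted p under 0.05, 4 were higher, and 4 were called without CD4 syngeneic JL019-2. Of 8 stromal and endothelial markers 0 were called (1 lower at an unadjusted p under 0.05), with sums of 5239 and 4712 in CD4 and 2497 and 2898 in CD8.

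**Figure D4:**
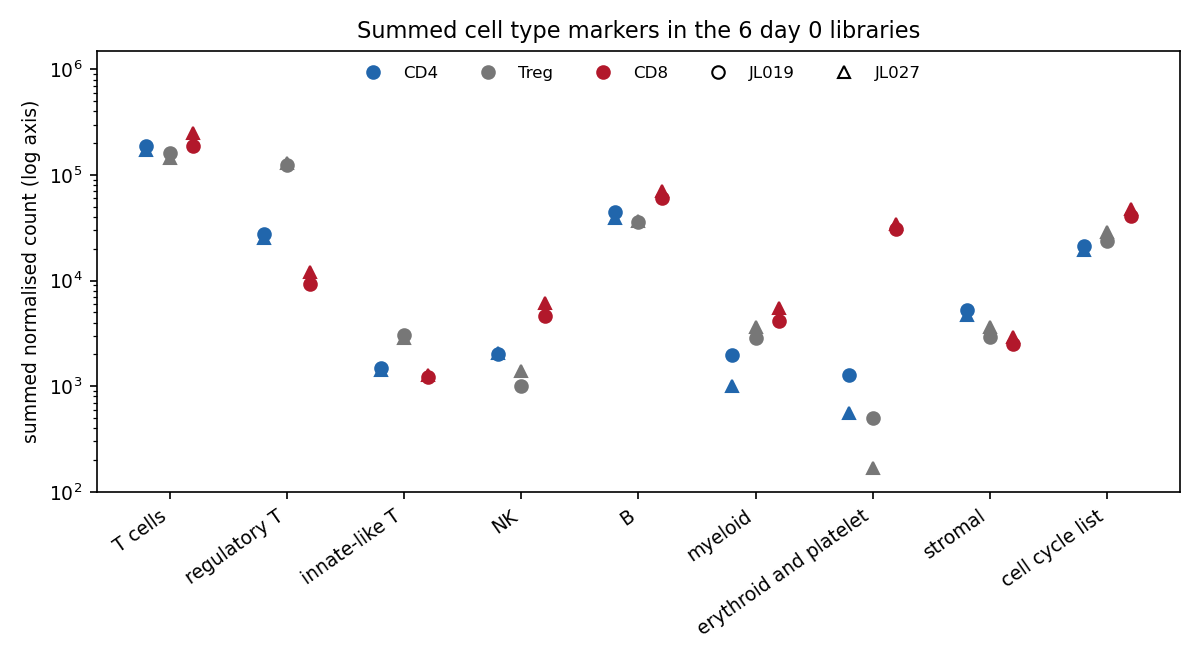
Summed normalised count (log axis) of 8 marker lists and of the cell cycle list in the 6 day 0 libraries, with CD4 in blue, Treg in grey and CD8 in red, circles for JL019 and triangles for JL027. The erythroid and platelet sum is 30589 and 34680 in CD8 and no more than 1277 in the other 4 libraries, and the Treg marker sum is highest in Treg, lower in CD4 and lowest in CD8.

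The same lineage contrast was drawn in cells recovered from hosts, which share no library with the day 0 comparison. In syngeneic hosts 833 genes were higher in CD8 (4.98% of those tested) and 1168 lower (6.98%). Median centring gave 1499 higher and 915 lower, and quantile normalisation 867 and 741. Of the 372 genes higher at day 0, 119 were called higher there too (32.0% of the day 0 genes and 14.3% of the 833), and 37 were called lower. Of the 184 genes lower at day 0, 125 were called lower again (67.9% of the day 0 genes and 10.7% of the 1168) and 1 was called higher. In allogeneic hosts 511 were higher (3.05%) and 518 lower (3.09%). There, 158 of the 372 (42.5%, and 30.9% of the 511) and 90 of the 184 (48.9%, and 17.4% of the 518) were called in the same direction, while 8 and 3 in the opposite one. Without CD4 syngeneic JL019-2, the 119 and 37 became 120 and 17, and the 125 and 1 became 133 and 2.

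The difference of the lineage contrast itself, day 0 minus syngeneic hosts, passed the test for 607 genes (3.63%), of which 511 (3.05%) were higher and 96 (0.573%) lower. Without day 0 libraries CD4 JL019, CD4 JL027 or CD8 JL019 it passed for 276, 280 and 263, and without CD4 syngeneic JL019-2 for 490. With median centring the split was 340 higher and 361 lower, and with quantile normalisation 311 and 130. Ccne2, which encodes a cyclin, had a lineage difference of 2.84 at day 0 and -0.53 in syngeneic hosts. Fasl turned round, from -1.79 at day 0 to 2.32 in syngeneic hosts, where CD8 libraries held 2112 to 3359.7 and CD4 libraries 319 to 679.6. Scin, an actin-severing protein, did not pass at day 0 (355 and 289.6 in CD4, 365 and 322 in CD8) and stood at 126 to 529 in CD4 and 5.29 to 10.8 in CD8 from syngeneic hosts.

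Day 0 minus allogeneic hosts passed for 161 genes (0.962%), 113 of them higher (0.675%) and 48 lower (0.287%), and for 373 without CD4 syngeneic JL019-2. With 1 day 0 library left out it passed for 69 (CD4 JL019), 71 (CD4 JL027), 84 (CD8 JL019) and 81 (CD8 JL027). With median centring 58 were higher and 65 lower, and with quantile normalisation 124 and 96. Ccr9 and Itgae had the lowest p-values. In allogeneic hosts Ccr9 was 2694 to 3741 in CD4 and 424 to 843 in CD8, the reverse of the day 0 order. Itgae was 147 to 324 in CD4 and 51.9 to 89.3 in CD8. In the opposite direction, Il2ra had a CD8 range of 4878 to 7397 against a CD4 range of 5079 to 5783, where at day 0 CD8 was the lower group by far. Zbtb7b, while still lower in CD8, narrowed from a difference of -5.42 at day 0, with 143 to 349.7 in allogeneic CD8 cells (difference of the contrasts -3.64, adjusted p = 0.00248). Cd4, Cd8a and Cd8b1 gave differences of the contrasts between -0.57 and 0.77 that did not pass.

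The receptor tables gave 11386 and 14476 TRB reads for CD4 and 13193 and 21858 for CD8, and 18145 and 20617 TRA reads for CD4 and 21577 and 22555 for CD8. Reads were grouped into clonotypes that share their V segment, J segment and CDR3, the loop at the join that contacts the peptide, compared as amino acids. PCR reads are not independent molecules, so intervals cover counting error only. Tests of V segment use shared the estimate of spread among segments. Their small p-values rest on that sharing and on 2 libraries a side.

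TRBV use differed between the lineages in many segments. Of the 22 segments tested, which held at least 99.9% of reads in each library, 6 took a larger share in CD8 (27.3% of those tested) and 13 a smaller one (59.1%), 86.4% in all (edgeR quasi-likelihood test with Benjamini-Hochberg adjustment). Summed over segments, 23.8% of reads would have to change segment to turn the mean CD4 use into the mean CD8 use. The same measure was 1.51% between the 2 CD4 libraries and 2.67% between the 2 CD8 libraries. Since shares sum to a whole, a rise of one segment lowers the others, and with TMM scaling 6 were higher and 5 lower. Fitted over all 31 libraries 9 of 22 segments passed.

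TRBV31 was most reduced. It took 16.9% and 16.9% of reads in CD4, 4.15% and 3.29% in CD8 and 15.9% and 14.1% in Treg (log2 ratio -2.20, SE 0.10, adjusted p = 1.77e-09). TRBV16, the most used segment, took 39.6% and 39.4% in CD4 and 50.8% and 51.9% in CD8 (log2 ratio 0.38, SE 0.06, adjusted p = 8.19e-05). TRBV29 (2.37% and 2.09% against 5.38% and 5.56%), TRBV17 (3.81% and 3.83% against 8.27% and 8.74%) and TRBV14 (1.66% and 1.73% against 4.07% and 4.46%) were each more than doubled in share, by log2 ratios of 1.30, 1.16 and 1.33. The rarer TRBV12-1 and TRBV12-2 rose by 2.21 and 2.24, from 0.132% and 0.173% and from 0.272% and 0.207%. TRBV5 fell from 5.29% and 5.41% to 2.76% and 2.61% (2-fold lower, adjusted p = 4.54e-08) and TRBV2 from 1.05% and 1.13% to 0.349% and 0.329% (log2 ratio -1.69, SE 0.17, adjusted p = 1.64e-06). For all of these segments the 2 libraries of a lineage lay closer to each other than to either library of the other lineage. Counting each clonotype once instead of its reads gave 19 calls, 6 higher and 13 lower, of which 18 were shared with the calls by reads.

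The RNA table gave a second reading of the same segments, from the same cDNA. All 22 segments had a gene there. The 19 segments called in the receptor table had the same sign of difference in RNA, 16 of them with groups that did not overlap, and 2 were called by limma. Over all genes 26.6% had both CD8 libraries above and 23.4% both below, so non-overlap with 2 libraries a side is common. Those 2 were Trbv31, at 1687 and 1512 in CD4 and 327 and 379 in CD8 (log2 difference -2.18, SE 0.51, adjusted p = 0.011), and Trbv12-1, at 335 and 292 in CD4 and 894 and 1327 in CD8 (log2 difference 1.80, SE 0.41, adjusted p = 0.0088). Across the 22 segments Pearson's r between both log2 values was 0.96 and Spearman's rho 0.955, a description over points that share libraries. TRBV12-2 had the widest gap of the 22 between both values, with a log2 ratio of 2.24 in reads and a log2 difference of 0.86 in RNA. Levels within a library differed between the assays: TRBV16 held 39.6% and 39.4% of TRB reads in CD4, while Trbv16 held 7.35% and 7.81% of the summed Trbv signal in RNA.

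**Figure D5:**
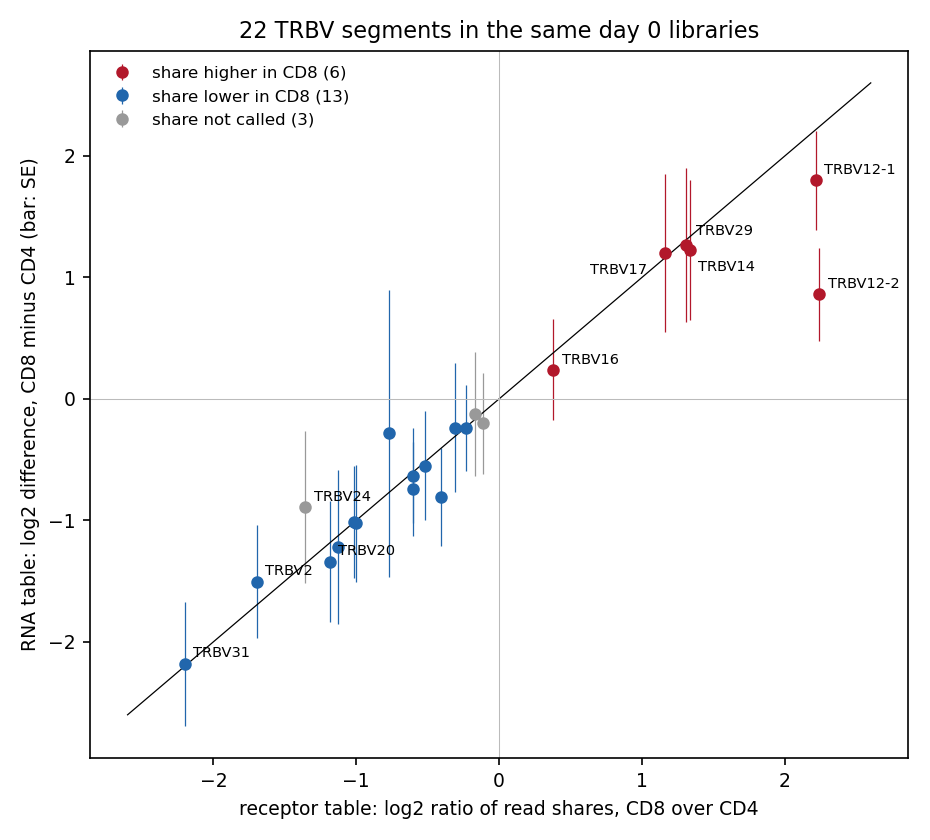
Each point is 1 of 22 TRBV segments, at the log2 ratio of its share of TRB reads in CD8 over CD4 (x axis) and the log2 difference of its gene in the RNA table (y axis, bar 1 SE), with a line of equal values. Red segments took a larger share in CD8, blue a smaller one and grey were not called. TRBV31 lies at the lower left, TRBV12-1 at the upper right, and TRBV12-2, the rightmost point, well below the line at 2.24 and 0.86.

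TRAV use differed as broadly. Of 24 segments tested, 6 took a larger share in CD8 (25% of those tested) and 12 a smaller one (50%), together 75%. On the same measure 25.5% of reads would have to change segment between the lineages, against 4.20% within CD4 and 3.28% within CD8. TRAV8D-2 took 13.5% and 14.1% in CD4 and 26.2% and 26.3% in CD8 (log2 ratio 0.92, SE 0.08, adjusted p = 3.31e-18). TRAV19 took 20.4% and 18.2% in CD4 and 27.9% and 25.5% in CD8 (log2 ratio 0.47, SE 0.07, adjusted p = 2.25e-08), and TRAV4 took 2.14% and 2.79% in CD4 and 5.02% and 5.24% in CD8 (log2 ratio 1.05, SE 0.12, adjusted p = 2.38e-12). TRAV5D-4 went the other way, from 18.2% and 16.5% to 7.52% and 8.17% (log2 ratio -1.14, SE 0.08, adjusted p = 9.87e-21). TRAV segments include many duplicated copies, and reads may be split among them. TMM scaling made the split 8 higher and 8 lower. Fitted over all 31 libraries, 0 of 24 segments passed by edgeR, with 7 at an unadjusted p under 0.05. DESeq2 on the day 0 libraries called 16.

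TRAV11 fell most. Its share was 4.02% and 4.1% in CD4 and 0.894% and 0.873% in CD8 (log2 ratio -2.20, SE 0.15, adjusted p = 1.33e-22), but by clonotypes counted once the log2 ratio was -0.51. TRAV11 joined to TRAJ18 forms the invariant alpha chain of natural killer T cells, which recognise lipids. That pair held 3.52% of CD4 reads in JL019 (Wilson 95% interval 3.26% to 3.79%) and 3.44% in JL027 (3.20% to 3.70%). In CD8 it held 0.366% (0.294% to 0.456%) and 0.346% (0.277% to 0.431%). In Treg it held 0.176% and 0.104%. The intervals of the CD4 and CD8 libraries are far apart. A single clonotype held 82.8% and 83.0% of the pair's reads in CD4, and it was the most frequent TRA clonotype of both CD4 libraries. TRAV1 joined to TRAJ33 is the segment pair of the invariant chain of mucosal-associated invariant T cells. Both pairs were counted whatever the CDR3. For TRAV1 and TRAJ33 a single clonotype held 58.6% and 56.5% of the pair's reads in CD4 and 94.4% and 40.0% in CD8. The whole pair held 0.160% and 0.223% of reads in CD4 and 0.0834% and 0.133% in CD8. The interval of CD4 JL019 (0.111% to 0.229%) overlaps those of both CD8 libraries (0.0528% to 0.132% and 0.0932% to 0.190%), and that of CD4 JL027 (0.167% to 0.297%) overlaps that of CD8 JL027.

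Diversity values of the lineages overlapped. In random draws of 8194 TRB reads there were 6968 and 7014 distinct clonotypes in CD4 and 6815 and 7009 in CD8. Most TRB reads drawn were thus distinct clonotypes, so the size of the draw limits how far TRB diversity values can differ. With 2 libraries a side a two-sided exact permutation test cannot go below p = 0.333, so these values are given without a test. TRB clonality, which is 0 when all clonotypes are equally frequent and 1 when a single one remains, was 0.00800 and 0.00754 in CD4 and 0.00861 and 0.00755 in CD8. Sorted Treg stood a little apart, at 6096 and 6407 clonotypes and a clonality of 0.0158 and 0.0128. For TRA, draws of 6870 reads held 3951 and 4150 clonotypes in CD4 and 3552 and 4065 in CD8. The most frequent TRA clonotype held 2.90% and 2.85% of draws in CD4, the TRAV11 and TRAJ18 chain, and 1.15% and 0.972% in CD8, a TRAV19 and TRAJ56 chain in both. The largest TRB clonotype of any of the 4 libraries held 0.134%.

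The CD4 pair of libraries and the CD8 pair were each more alike than any CD4 library was to a CD8 library. The Morisita-Horn index, which is 0 for no shared clonotypes and 1 for identical frequencies, was 0.106 between the CD4 libraries and 0.124 between the CD8 libraries for TRB. Between the lineages it ran from 0.0484 to 0.0753. The CD4 libraries shared 647 TRB clonotypes (7.07% of JL019 and 5.75% of JL027) and the CD8 libraries 713 (7.12% and 4.59%). For TRA the index was 0.828 between CD4 libraries, 0.616 between CD8 libraries and 0.250 to 0.257 between lineages. With the TRAV11 and TRAJ18 chains removed it was 0.410, 0.611 and 0.301 to 0.344, so the CD4 value rested largely on that chain. In TRB the index between a CD4 and a CD8 library was 0.0484 and 0.0753 within the experiments JL019 and JL027, and 0.0628 and 0.0584 across them. Treg did not keep to that order: in TRB CD4 JL019 and Treg JL027 had an index of 0.127 with 770 shared clonotypes, above the CD4 pair, and in TRA the Treg pair (0.132) lay below Treg with CD8 (0.192 to 0.215).

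CDR3 loops of TRB were slightly longer in CD8. The mean length weighted by reads was 13.79 and 13.79 amino acids in CD4 and 13.97 and 13.98 in CD8. The gap of 0.185 exceeded the gap within either pair. Of 14 segments with at least 100 reads in each of the 4 libraries, 8 had longer loops in both CD8 libraries than in both CD4 libraries and 3 had shorter ones. In TRBV16 the mean was 13.76 and 13.76 in CD4 and 14.08 and 14.06 in CD8. In TRBV29 it was 13.89 and 13.97 in CD4 and 13.57 and 13.63 in CD8, the other way. TRA loops differed by -0.0721, at 13.40 and 13.40 in CD4 and 13.33 and 13.32 in CD8. Counted by clonotypes, that TRA difference was 0.0263, so its sign depended on the weighting.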

How the data were processed

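Sorted CD4 and CD8 conventional T cells were profiled by bulk RNA sequencing and by nested PCR of T-cell receptor chains from the same full-length cDNA, per the labels' protocols (SMARTer v4 and Nextera XT kits). The submitters' processing notes name FastQC 0.11.7, kallisto, DESeq2 and the builds GRCm38 and mm10. The authors deposited RNA as normalised counts, a signal scaled between libraries and not whole numbers, so that count models did not apply and the depth is not given in the sources used here. The receptor table deposited by the authors gives whole read counts per clonotype. Its software is not given in the sources used here.

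RNA values of 16741 genes were tested as log2(value + 1) with limma 3.58.1 in R 4.3.3. The model held a mean for each group over all 31 libraries (21 residual degrees of freedom), a variance trend with robust estimation, and Benjamini-Hochberg adjusted p under 0.05 as the threshold. The mean filter of 1 removed 0 genes, and 292 table entries had no symbol. Nothing says that libraries came from separate animals, so p-values measure the spread between these libraries. Reads per V segment (at least 10 on average) were tested with edgeR 4.0.16 over the 6 day 0 libraries, with library totals as offsets. DESeq2 1.42.0 was an alternative. Diversity used 20 random draws per library. Shares of single libraries carry Wilson 95% intervals.

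The prefix JL019 or JL027, called the experiment in the receptor table, is not stated to pair libraries. It was taken as a pairing only where a replicate block is named. Deviations from group means of same-prefix libraries correlated at -0.39 for CD4 and CD8, -0.25 for CD4 and Treg and 0.36 for CD8 and Treg, across genes. On simulated data with 50 genes changed at each size, limma recovered 22%, 64%, 86% and 100% of changes of 1, 2, 3 and 4 on the log2 scale, with 10 false calls among the unchanged genes of 16741 and 1 of the 50 changes of 1 estimated with the wrong sign, called or not. The edgeR step recovered 6 of 6 changed segments of 22 TRBV and of 24 TRAV segments.

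Genes named were Cd4, Cd8a, Cd8b1, Zbtb7b and Runx3, up to 3 called genes a direction in each list by lowest p (where none was called, up to 2 by size), the 10 lowest p a direction over all genes and up to 5 a direction for each difference of contrasts. Every other gene named, among them Prf1, Gzmb, Foxp3, Tbx21, Cd28 and Mki67, was chosen after its values were seen. The groups, lists and tests were chosen with earlier results of these data known. List members absent from the table, such as Klrb1a and Ahsp, were left out, and some items are not reported here.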

Additional observations from a re-analysis of the deposited data

Results flagged for a closer look

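For 20 genes the CD8 minus CD4 difference itself changed between day 0 and recovered cells, by limma's interaction term with Benjamini-Hochberg adjustment. They are up to 5 a direction with the lowest p. Against syngeneic hosts the contrast was higher at day 0 for Ell2 (4.39, SE 0.45), Ccne2 (3.37, SE 0.38), Scin (5.24, SE 0.62), Sgo1 (3.11, SE 0.38) and Nqo1 (5.31, SE 0.64), with adjusted p from 4.16e-06 to 2.24e-05. Ell2 encodes an elongation factor of transcription and Nqo1 a quinone reductase. It was lower for Fasl (-4.12, SE 0.49), Asb2 (-3.10, SE 0.47), Itm2a (-2.93, SE 0.45), Armc7 (-2.03, SE 0.32) and Plekhf1 (-2.64, SE 0.43), with adjusted p from 2.24e-05 to 4.95e-04. The syngeneic group holds the library CD4 syngeneic JL019-2. Without it the values were 3.96 for Ell2, 3.14 for Ccne2, 5.87 for Scin, 3.02 for Sgo1, 4.61 for Nqo1, -3.80 for Fasl, -3.06 for Asb2, -2.49 for Itm2a, -1.94 for Armc7 and -2.86 for Plekhf1.

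Against allogeneic hosts the contrast was higher at day 0 for Ccr9 (5.53, SE 0.54), Itgae (6.08, SE 0.60), Lrrc6 (5.74, SE 0.60), Scart1 (5.67, SE 0.70) and Sytl3 (2.45, SE 0.31), with adjusted p from 1.06e-06 to 3.97e-05. It was lower for Il2ra (-4.89, SE 0.56), Pdcd1 (-4.06, SE 0.49), Ly6c1 (-4.24, SE 0.54), Nrp1 (-2.47, SE 0.32) and Ckb (-3.25, SE 0.47), with adjusted p from 1.30e-05 to 2.17e-04. Of these 10, Lrrc6 alone was not called at day 0, at 7.47 and 18.3 in CD4 and 18.9 and 17.4 in CD8. Ckb, a creatine kinase, stood at 1416 and 1208 in CD4 and 132 and 135 in CD8 (log2 difference -3.28, SE 0.38, adjusted p = 1.64e-06).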

How the results depend on the processing

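Of 2738 alternative values over 137 named genes at day 0, 2476 kept direction and side of the threshold, 153 newly passed, 103 no longer passed and 6 changed sign. The sign changes were Scin (-0.050 median-centred, -0.027 with quantile normalisation, -0.050 to 0.24 with 1 library left out) and, with 1 library left out, Lrrc6 (-0.018 to 1.17), Col1a1 (-0.57 to 2.6) and Armc7 (-0.26 to 0.056). None of these genes was called at day 0. TRBV1 became 0.0024 with TMM, and TRAV1 ranged from -0.010 to 0.033 with 1 library left out. The cause was not tested.

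The 556 day 0 calls became 1911 in the 4 libraries alone, 1262 in the 6 day 0 libraries, 1227 with array weights, 854 without CD4 syngeneic JL019-2 and 266 to 340 with 1 library left out. With the experiment as a replicate block the count was 596 over all libraries and 1232 in the 4 libraries alone. Lists were counted only in the block fit over all libraries. There no list count changed by more than 1.5 times except the erythroid one (2 to 4) and that of the immediate early genes (0 to 1 higher). Crossing the pairs, an alternative chosen after seeing the data, gave 3296 calls. In syngeneic hosts the 2001 calls became 8372 with array weights and 1264 to 2250 with 1 library left out, and the split moved from 833 and 1168 to 1499 and 915 with median centring. Day 0 minus syngeneic (607) became 2098 with array weights and 263 to 883 with 1 library left out, and median centring split it 340 and 361. Day 0 minus allogeneic (161) became 699 with array weights, 373 without CD4 syngeneic JL019-2 and 69 to 174 with 1 library left out. Its split was 58 and 65 with median centring and 124 and 96 with quantile normalisation. Where an arm kept 1 library, that library was assumed to vary like the rest.

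The 19 TRBV calls became 9 over all 31 libraries and 11 with TMM. With the replicate block 19 were called, and with 1 library left out 17 to 18. The 18 TRAV calls became 0 over all 31 libraries, 16 with the replicate block and 14 to 16 with 1 library left out. The ratio of distinct TRB clonotypes, CD8 over CD4, was 0.989 in equal draws but 1.25 without them and 1.30 among clonotypes of at least 2 reads. The TRB clonality difference of 0.000308 became 0.00295 and 0.00264 in the same order. The TRA clonality difference of -0.00286 became 0.00186 without equal draws, the TRB loop length difference of 0.185 became 0.167 with each clonotype counted once, and the TRA loop length difference of -0.0721 became 0.0263. Only 2 libraries a side and an unknown RNA depth limit every value.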
